A study of Mus musculus with 44 samples.

Results

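The enzymes that attach glucuronic acid, sulfate or glutathione to other molecules were examined in 2 tissues, liver and skeletal muscle, from WT mice and mice without the Slc16a13 gene (KO). The genes were chosen by symbol, as UDP-glucuronosyltransferases (UGT, families Ugt1 to Ugt3), sulfotransferases (SULT) and glutathione S-transferases (GST), and by their measured counts, with 10 or more reads in at least 5 of 44 libraries. The symbols matched 64 of the 38202 genes in the count table, and 47 of the 64 passed: 18 of 20 UGT, 8 of 21 SULT and 21 of 23 GST genes. Of the 17 genes that did not pass, 14 had under 10 reads in every library and 5 had 0 reads in every library. Just inside the limit were Ugt1a2, with 10 or more reads in 7 libraries, and Ugt2b38, with 10 libraries. Just outside it were Sult3a1 with 4 libraries, Gsto2 with 2 and Gstt4 with 1.

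Conjugation makes a lipid-soluble molecule more soluble in water, so that it can leave the cell through an export pump and the body through bile or urine. UGT enzymes sit in the endoplasmic reticulum and use UDP-glucuronic acid, cytosolic SULT enzymes use the sulfate donor PAPS, and GST enzymes use the tripeptide glutathione to trap reactive compounds. The liver is the main organ for this work, with bilirubin, bile acids, steroid and thyroid hormones, drugs and products of lipid peroxidation among the substrates.

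RNA was sequenced from both tissues of 11 WT and 11 KO mice, which gave 44 libraries of poly(A) RNA read in single-end reads of 85 bases. All mice were males on the C57BL/6N background, 20 weeks old, and all had been fed high-fat diet for 15 weeks, so no library shows the state on normal chow. According to the methods, mice were killed after an overnight fast unless stated otherwise. The KO mice carry a constitutive CRISPR/Cas9 deletion of the promoter and first exons of the lactate transporter gene Slc16a13 in every tissue, and WT mice were littermates.

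The libraries held 20150712 to 35218243 counted reads each. Slc16a13 had 99 to 302 reads in WT livers and 0 to 8 in KO livers. In WT muscle it had 4 to 22 reads (median 12) and in muscle labelled KO 11 to 40 (median 18), so the low counts in muscle do not show the deletion. The paper reports efficient deletion by qRT-PCR in multiple tissues, with primers in the deleted exons. From which exons the counted reads came is not known. The muscle samples are therefore named as labelled KO below. The defining hepatocyte markers summed to 94685 to 122250 CPM (reads scaled to library size) in WT liver and the skeletal muscle markers to 144423 to 184882 CPM in WT muscle. In 4 KO livers (mice 532, 602, 583 and 611) long genes had fewer reads relative to short genes than in every WT liver: when log2 CPM, taken relative to the mean of the tissue, was fitted on log2 gene length, the slope was -0.53, -0.42, -0.25 and -0.08, against 0.04 to 0.10 in WT livers. These 4 libraries are named again wherever a liver value rests on them.

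Several of the genes are close copies, which bears on every value below because a read of 85 bases can match more than one of them. Over 10 pairs the coding sequences were more than 90% identical, among them Gstp1 and Gstp2 (98.1%), Gsta1 and Gsta2 (97.6%), Ugt2b38 and Ugt2b5 (97.0%), Ugt1a9 and Ugt1a10 (95.3%), Ugt3a1 and Ugt3a2 (93.2%), and the trio Ugt1a6a, Ugt1a6b and Ugt1a7c (98.4% to 100%). Of all 85-base stretches of the transcript with the longest coding sequence, 55.8% in Gstp1, 66.3% in Gstp2, 84.6% in Gsta1 and 40.7% in Gsta2 occur unchanged in a transcript of another gene. For Gsta1 most of these are shared with Gm3776, a gene outside the 47. The following stretches of exon 5 (Gstp1 and Gstp2, chromosome 19, minus strand) and exon 6 (Gsta1, chromosome 9, plus strand, and Gsta2, minus strand) hold part of the bases by which the 2 copies of each pair differ, and are shown 5′ to 3′ because the tissue pattern of the Gstp pair and the variation of Gsta1 are described below. Capitals mark the bases that differ, 6 in the first pair and 5 in the second (GENCODE M21, GRCm38, chr19:4036694-4036778, chr19:4040988-4041072, chr9:78241536-78241620 and chr9:78332125-78332209).
Gstp1: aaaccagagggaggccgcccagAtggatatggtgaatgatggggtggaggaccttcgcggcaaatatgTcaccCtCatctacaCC
Gstp2: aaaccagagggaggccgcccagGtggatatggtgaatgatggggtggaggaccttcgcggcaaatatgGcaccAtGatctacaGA
Gsta1: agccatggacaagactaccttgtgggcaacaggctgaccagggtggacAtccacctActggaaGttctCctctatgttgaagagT
Gsta2: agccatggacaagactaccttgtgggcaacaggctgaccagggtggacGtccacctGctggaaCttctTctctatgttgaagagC

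The Ugt1a genes are a special case. The 8 that passed lie at 1 locus on chromosome 1 (GRCm38, 88055388 to 88220002), where first exons alternate and the last exons are shared. In the annotation used, the coding sequence of Ugt1a7c is that of Ugt1a6a. Between 57.5% (Ugt1a1) and 100% (Ugt1a6a) of the 85-base stretches in these 8 genes occur in another gene. The deposited RPKM values are labelled unique, but how shared reads were treated or divided among these genes is not given in the sources used here. Differences between Ugt1a genes are thus less certain than those of the other groups. Many of the other genes had no shared stretch, among them Ugt2b36, Sult2a8, Gstz1, Gsta3, Gsta4, Gstm4, Gstm5, Gstm7, Gstp3 and Sult2a7.

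In WT liver, transcripts of the 3 families made up 1.05% of all counted reads (median of 11 mice, range 0.915% to 1.09%). GST genes took 0.473%, UGT genes 0.448% and SULT genes 0.120%. In WT muscle the 47 genes together took 0.0435% (range 0.0412% to 0.0480%), of which nearly all was GST (0.0413%), while SULT genes took 0.00194% and UGT genes 0.000266%. The ranges of the tissues did not overlap for any family. In bulk tissue, fewer cells of a type and less RNA per cell cannot be told apart.

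**Figure D1:**
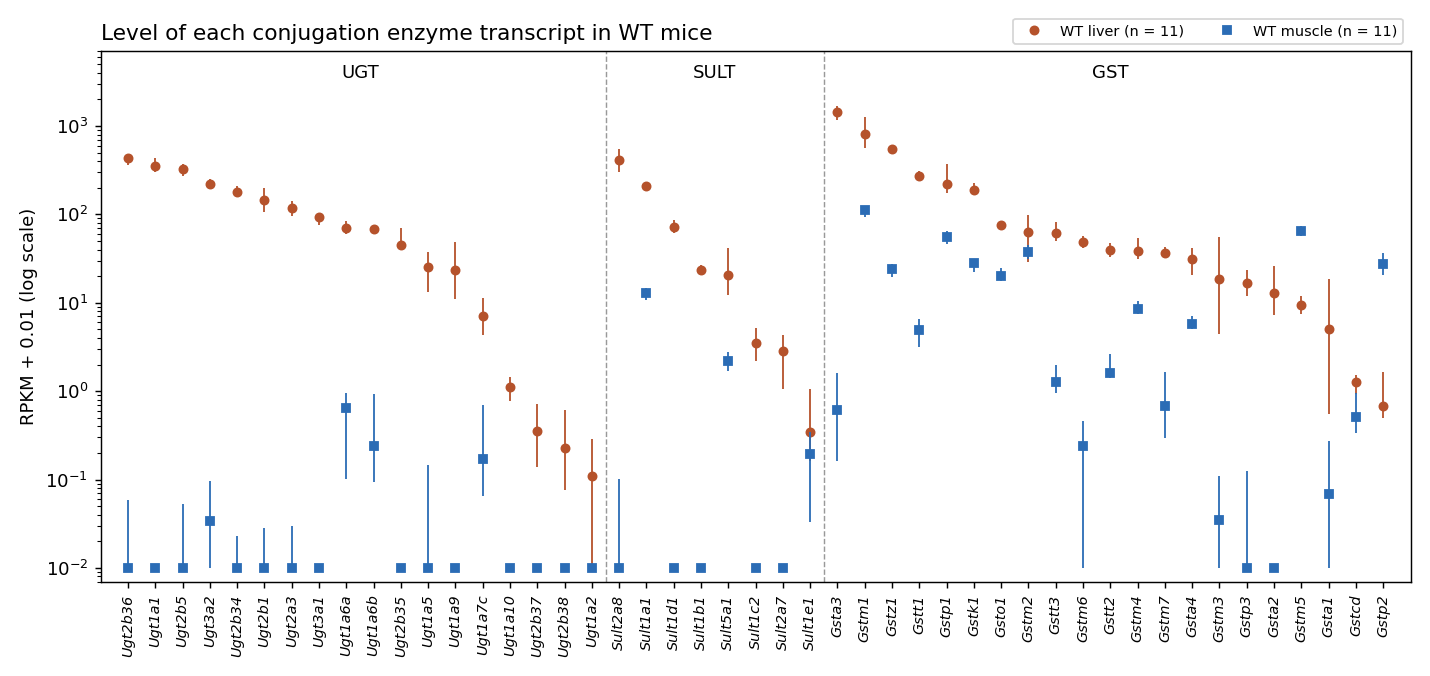
Level of each of the 47 transcripts in WT liver (circles) and WT muscle (squares) as RPKM plus 0.01 on a log scale, with points at the median and bars from the lowest to the highest of 11 mice. All UGT medians in muscle lie below 1 RPKM, whereas Gstm5 and Gstp2 are the 2 genes with a higher median in muscle than in liver.

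Levels of different genes were compared as RPKM, the read number scaled to gene length and library size. For the same gene, the length implied by reads and RPKM was not equal in all libraries. All 47 genes reached the count limit in liver. In muscle 22 also did and 25 passed through liver alone, so those 25 had to differ between tissues and their number is not a finding. In WT liver 42 genes had a median of at least 1 RPKM and 15 of at least 100 RPKM. In WT muscle 15 genes had a median of at least 1 RPKM: 13 GST, 2 SULT and 0 UGT. Between WT liver and WT muscle, 42 of the 47 genes were tested and all 42 passed an adjusted p of 0.05 in edgeR's quasi-likelihood test, against 91.0% of all 13907 genes tested, and since the rule used counts in both tissues nothing is read from this.

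Among UGT genes, the highest medians in WT liver were those of Ugt2b36 (437 RPKM, range 360 to 486), Ugt1a1 (353 RPKM, 303 to 434) and Ugt2b5 (323 RPKM, 271 to 376). Ugt1a1 is the enzyme that conjugates bilirubin, while the Ugt2b group conjugates steroids and many drugs. Of the summed RPKM of the UGT genes in WT liver, Ugt2b36 took 20.2% (median), Ugt1a1 16.7% and Ugt2b5 15.6%, so no single gene held most of the family. Ugt3a2, which uses other sugar donors than glucuronic acid, followed with 220 RPKM (204 to 250).

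UGT transcripts were close to absent from muscle. Of the 18 UGT genes, 11 had at most 3 reads in every muscle library, and Ugt1a1, with 15205 to 23966 reads in WT livers, had 0 reads in all 11 WT muscle libraries and at most 8 in any labelled KO. The highest UGT levels in WT muscle were those of Ugt1a6a (median 0.630 RPKM, 6 to 51 reads), Ugt1a6b (0.232 RPKM, 4 to 49 reads) and Ugt1a7c (0.162 RPKM, 4 to 43 reads), enzymes of planar phenols whose sequences overlap as described above. The median RPKM of Ugt1a6a in muscle was 0.892% of that in liver, a share that also depends on the unequal implied lengths. Its median CPM was 0.874 in WT muscle and 140.9 in WT liver. A count of 3 reads was taken as the floor of detection.

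Among SULT genes, Sult2a8, of the bile acid and steroid sulfotransferase family, was the highest in WT liver, with 414 RPKM (298 to 545) and 55.9% of the summed SULT RPKM. It was at 0 to 2 reads in WT muscle. Sult1a1, the phenol sulfotransferase, had 207 RPKM in WT liver (183 to 229) and Sult1d1, which sulfates catecholamines, had 71.9 RPKM (61.6 to 87.1). In muscle, Sult1a1 was the main SULT transcript, with 12.9 RPKM in WT libraries (10.7 to 14.5), followed by Sult5a1 with 2.20 RPKM (1.68 to 2.73). Sult1e1, the oestrogen sulfotransferase, was low in both tissues (0.331 RPKM in WT liver and 0.182 RPKM in WT muscle), and its ranges overlapped.

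Among GST genes, WT liver was led by Gsta3 (1428 RPKM, 1160 to 1664), Gstm1 (820 RPKM, 561 to 1257) and Gstz1 (548 RPKM, 502 to 587). Gsta3 took 36.1% of the summed GST RPKM and Gstm1 20.6%. Gstz1 is maleylacetoacetate isomerase, an enzyme of tyrosine breakdown. In WT muscle Gstm1 was highest, at 113 RPKM (92.8 to 122), followed by Gstm5 at 64.2 RPKM (57.4 to 74.3) and Gstp1 at 55.0 RPKM (46.4 to 65.2). Gsta3, the leading liver enzyme, had 0.599 RPKM in muscle (0.153 to 1.59), 0.0420% of its liver level. Gsta4, of the same alpha class, which conjugates the lipid peroxidation product hydroxynonenal, had 31.2 RPKM in liver and 5.80 RPKM in muscle, 18.6% of its liver level.

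Gstp2 and Gstm5 were the 2 genes with a higher median in muscle. Gstp2 had 8 to 35 reads in WT livers and 422 to 567 in WT muscle, or 0.674 RPKM (0.493 to 1.64) and 27.7 RPKM (20.4 to 36.3). The log2 difference of liver minus muscle in CPM was -4.81 (standard error 0.16). Gstm5 had 133 to 272 reads in WT livers and 1326 to 1775 in WT muscle, a log2 difference of -2.82 (standard error 0.07). In neither gene did the tissues overlap, and the same held in KO mice, with 6 to 57 reads of Gstp2 in liver and 327 to 567 in muscle labelled KO.

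Gstp1, the neighbour and near copy of Gstp2, had the opposite order, with 220 RPKM in WT liver (174 to 371) and 55.0 in muscle, a log2 difference of 2.10 (standard error 0.11). The 300-base windows around their starts (250 bases before and 50 after, RefSeq, GRCm38.p6, minus strand) were 76.4% identical over 318 aligned columns, less than the coding sequences. They are shown because the coding copies are nearly the same while the tissue levels are not. Capitals mark bases that differ or have no partner in the alignment (chr19:4037863-4038162 and chr19:4042172-4042471). What these differences do was not tested.
Gstp1: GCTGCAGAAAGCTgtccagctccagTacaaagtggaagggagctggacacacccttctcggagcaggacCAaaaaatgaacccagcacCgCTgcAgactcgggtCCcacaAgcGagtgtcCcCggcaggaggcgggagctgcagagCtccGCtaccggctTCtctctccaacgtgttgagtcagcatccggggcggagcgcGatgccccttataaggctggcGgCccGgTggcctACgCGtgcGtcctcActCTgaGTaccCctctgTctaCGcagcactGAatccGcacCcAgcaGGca
Gstp2: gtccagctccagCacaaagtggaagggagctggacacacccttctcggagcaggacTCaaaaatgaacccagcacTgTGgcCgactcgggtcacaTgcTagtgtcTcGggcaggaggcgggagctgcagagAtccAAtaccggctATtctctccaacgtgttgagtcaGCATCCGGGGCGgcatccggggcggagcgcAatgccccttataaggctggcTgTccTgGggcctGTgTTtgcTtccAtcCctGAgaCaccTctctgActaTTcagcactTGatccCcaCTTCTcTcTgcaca

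Windows of this kind were found for 42 of the 47 genes (52 windows). The antioxidant response element core TGACNNNGC, the letters bound by NRF2 with its small Maf partners, was found on either strand in 5.77% of these windows (Gsta3, Gstm5 and Gstm7) and in 12.4% of all 32851 windows. The xenobiotic response element core TNGCGTG, bound by the aryl hydrocarbon receptor, was found on either strand in 7.69% (Gsta2, Gstcd, Sult1d1 and Ugt1a5) and in 5.07% of all windows. A single stretch can hold both, since their GC letters can coincide. A match is a description of these letters and no match says nothing of the factor.

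Transcripts at trace level in muscle were read beside hepatocyte markers, which muscle does not make in quantity. All 8 hepatocyte markers had reads in muscle, and their sum was 4.26 to 14.1 CPM in WT libraries and 4.33 to 60.1 CPM in those labelled KO, with the highest sum in mouse 561. Most of it was Cyp2e1, with a median of 169 reads in WT muscle where the 8 markers together had 198, while Apoa1, Ttr, Serpina1c and Tat had a median of 0 reads. The adipocyte marker sum was highest in the same 2 libraries as the hepatocyte sum (mice 561 and 611, with 1416 and 1303 CPM). Cyp2e1 stood at 0.0492% of its liver level in WT muscle and Alb at 0.000640%. In all, 27 of the 47 genes had a muscle median under 1% of that in liver. Their reads added up to 30 to 156 per WT muscle library and 43 to 268 per library labelled KO. Across the 11 WT muscle libraries this sum followed the hepatocyte sum with r = 0.87 and rho = 0.83, and without the 2 libraries farthest from the median with r = 0.87. Across the 11 labelled KO it was r = 0.93 and rho = 0.74, and r = 0.72 without 2 libraries. The 2 sums share their libraries and are given as a description, and the part of adipocyte RNA was not tested. The share of Ugt1a6a in muscle (0.892%) was above that of every hepatocyte marker, while Ugt1a1 and Sult2a8 (medians of 0 reads) were not.

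From one WT liver to the next the genes varied to unequal extents. The SD of log2 CPM over the 11 WT livers was under 0.2 for 21 of the 46 genes tested. It was above the median of all genes with a mean within 1 log2 unit for 33 genes and above the 90th percentile of such genes for 15. The SDs of the 5 most variable genes with a mean of at least 1 CPM were 1.59 for Gsta1, 1.003 for Gstm3, 0.67 for Sult2a7, 0.59 for Ugt1a9 and 0.57 for Gstm2, at percentiles from 95.4 to 99.8 among such genes.

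Gsta1 (ENSMUSG00000074183), an alpha class GST, had 0.369 to 11.8 CPM in WT livers (median 3.28 CPM, 8 to 310 reads), a 31.95-fold range. Gstm3 (ENSMUSG00000004038), of the mu class, had 5.57 to 62.7 CPM (median 21.4 CPM), an 11.2-fold range. Mice 536 and 537 were lowest in both. Mouse 528 was highest in Gsta1 and mouse 624 in Gstm3. Sult2a7 had 0.942 to 3.71 CPM, Ugt1a9 24.5 to 97.9 CPM and Gstm2 31.95 to 99.7 CPM.

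**Figure D2:**
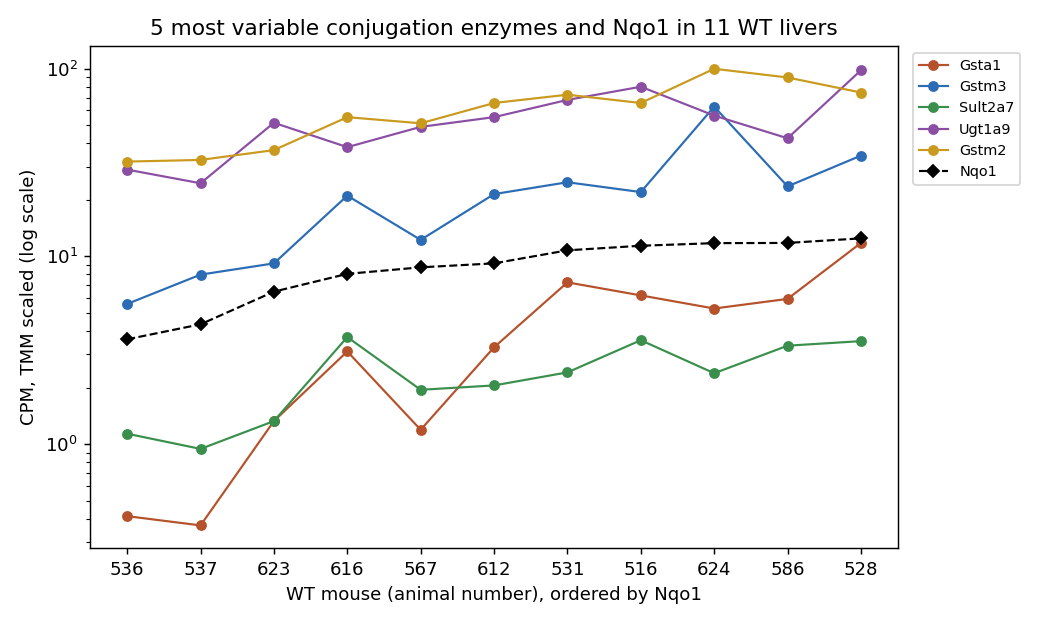
CPM of the 5 most variable genes and of Nqo1 in each of 11 WT livers, on a log scale, with mice ordered by Nqo1. Mice 536 and 537 are at the low end of Gsta1, Gstm3, Sult2a7, Ugt1a9 and Gstm2, and mice 528, 624, 586, 516 and 531 are mostly high.

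These 5 genes, picked for their spread in the same 11 livers, varied together. How often other variable genes do so was not tested. All 10 pairs had a positive Pearson correlation of log2 CPM over the 11 WT livers, from r = 0.64 to r = 0.94, and all 10 had an adjusted p under 0.05 (two-sided permutation tests with 100000 resamples, Benjamini-Hochberg over the 10 pairs, highest adjusted p = 0.033). By Spearman correlation 9 of 10 passed. The closest pair was Gstm3 and Gstm2, with r = 0.94 and rho = 0.97 (adjusted permutation p = 0.0002 for r). These neighbours on chromosome 3 share no 85-base stretch, although Gstm3 shares 18.5% of its stretches with Gstm1, Gstm6 and other genes. Without the 2 livers farthest from the median of the first gene, r was 0.92 for Gstm3 and Gstm2, 0.75 for Gsta1 and Gstm3, 0.76 for Gsta1 and Gstm2, and at least 0.69 in 3 other pairs. In 4 pairs the unadjusted permutation p was then above 0.05 over 9 livers: Gsta1 and Ugt1a9 (r = 0.61), Sult2a7 and Gstm2 (r = 0.55), Ugt1a9 and Gstm2 (r = 0.50), and Sult2a7 and Ugt1a9 (r = 0.20), the last of which rests on the 2 livers left out.

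Further partners were added after these values were seen, and their relations to other variable genes were not tested. Nqo1, a quinone reductase and well known target of NRF2, had 3.61 to 12.5 CPM in WT livers and followed all 5 genes, with r = 0.94 for Gsta1, 0.93 for Gstm2, 0.89 for Gstm3, 0.85 for Sult2a7 and 0.82 for Ugt1a9 (adjusted permutation p at most 0.0038, over 10 relations). The rho values were 0.88, 0.95, 0.93, 0.66 and 0.74 in the same order, and that of Sult2a7 had an adjusted permutation p of 0.060. Without the 2 livers farthest from the median of Nqo1, r was 0.86, 0.90, 0.79, 0.65 and 0.54, with permutation p = 0.052 for Sult2a7 and 0.14 for Ugt1a9 over these 9 livers. In the 7 KO livers with a length slope of 0 or more, Nqo1 gave r = 0.52 to 0.83 and rho = 0.14 to 0.61, with no adjusted permutation p under 0.05 (lowest 0.30), and r = -0.21 to 0.41 without 2 livers. Cyp2b10, a target of the receptor CAR, gave r = 0.02 to 0.59 in WT livers, and none of its 5 relations had an adjusted p under 0.05. In the 7 KO livers Cyp2b10 gave r = -0.40 to -0.007, with no adjusted permutation p under 0.05. Without 2 livers, over 5 livers, it gave r = 0.26 to 0.93, with unadjusted permutation p = 0.0083 for Gstm3 (r = 0.93) and 0.041 for Gstm2 (r = 0.83). Over the 11 WT livers the 5 genes had r = -0.51 to -0.01 with the length slope and r = 0.12 to 0.53 with the log2 total count, with no adjusted permutation p under 0.05.

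In the 7 KO livers with a length slope of 0 or more, the 10 pairs gave r = 0.65 to 0.98 and rho = 0.29 to 0.93 (permutation tests, adjusted p = 0.014 to 0.12 for r and at least 0.067 for rho). Without the 2 livers farthest from the median of the first gene, r lay between -0.30 and 0.38 in 7 pairs, which thus rest on those livers, and was 0.85 for Gstm3 and Gstm2, 0.68 for Ugt1a9 and Gstm2, and 0.67 for Sult2a7 and Gstm2, over 5 livers. The liver of mouse 597 had 171 CPM of Cyp1a1, the classic target of the aryl hydrocarbon receptor, against 0.143 to 1.31 CPM in the other 21 livers, and 1059 CPM of Cyp1a2 against 119 to 393 CPM. In the same liver Sult2a7, at 5.73 CPM, was the highest of all 22. Gsta1 (12.4 CPM), Gstm3 (38.6 CPM), Ugt1a9 (92.6 CPM), Ugt1a7c (8.11 CPM) and Ugt2b35 (114.2 CPM) were the second highest. Sult1a1, Sult1b1, Sult2a8, Gsto1, Gstz1, Ugt2a3, Ugt2b5 and Ugt2b38 (0.0434 CPM) were the lowest of all 22. Without the liver of mouse 597, in 6 KO livers, r was 0.96 for Gstm3 and Gstm2, 0.80 for Gsta1 and Gstm3, and -0.01 for Sult2a7 and Ugt1a9. Muscle of mouse 597 also had the highest Cyp1a1, at 3.36 CPM against 0.261 to 1.46 CPM in the other 21.

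Between genotypes in liver, no UGT, SULT or GST gene passed. Of 46 genes tested, 0 had an adjusted p under 0.05 (edgeR's quasi-likelihood test, Benjamini-Hochberg over all 13005 genes tested), where 0.0231% of all genes passed. DESeq2 and limma-voom also called 0. Before adjustment 7 genes (15.2%) had p under 0.05, 5 higher and 2 lower in KO mice, against 12.9% of all genes. With limma-voom it was 1 higher and 3 lower, the same with libraries scaled by their size alone, and 7 higher and 3 lower with DESeq2. Over all 13005 genes, 1652, 1408 and 1966 were under 0.05 in these 3 fits. The median log2 fold change of the 46 genes was 0.0009 and that of all genes -0.0054.

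By family, the GST genes leaned higher and the UGT genes lower. Of 21 GST genes 15 had a higher fitted level in KO mice, with a median log2 fold change of 0.09, and of 17 UGT genes 6 did, with a median of -0.08. Of all genes tested 48.9% had a higher fitted level. For the 8 SULT genes the median was -0.04. Without the 4 KO livers with a negative length slope, 6 of 21 GST genes were higher, where 50.3% of all genes were. The median was then -0.03 for GST genes and -0.03 for UGT genes. The length implied by reads and RPKM had a median of 1060 bases for GST, 1361.5 for SULT and 2153.5 for UGT genes, and 2412 for all genes tested in liver. Without the 4 livers 4 of 47 members (8.51%) had an unadjusted p under 0.05 against 2.96% of all genes, all lower in KO mice: Ugt2b38, Gstm5, Gsta3 and Ugt2b5 (adjusted p = 0.999 in the same test). None of them is among the 7 with all livers.

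**Figure D3:**
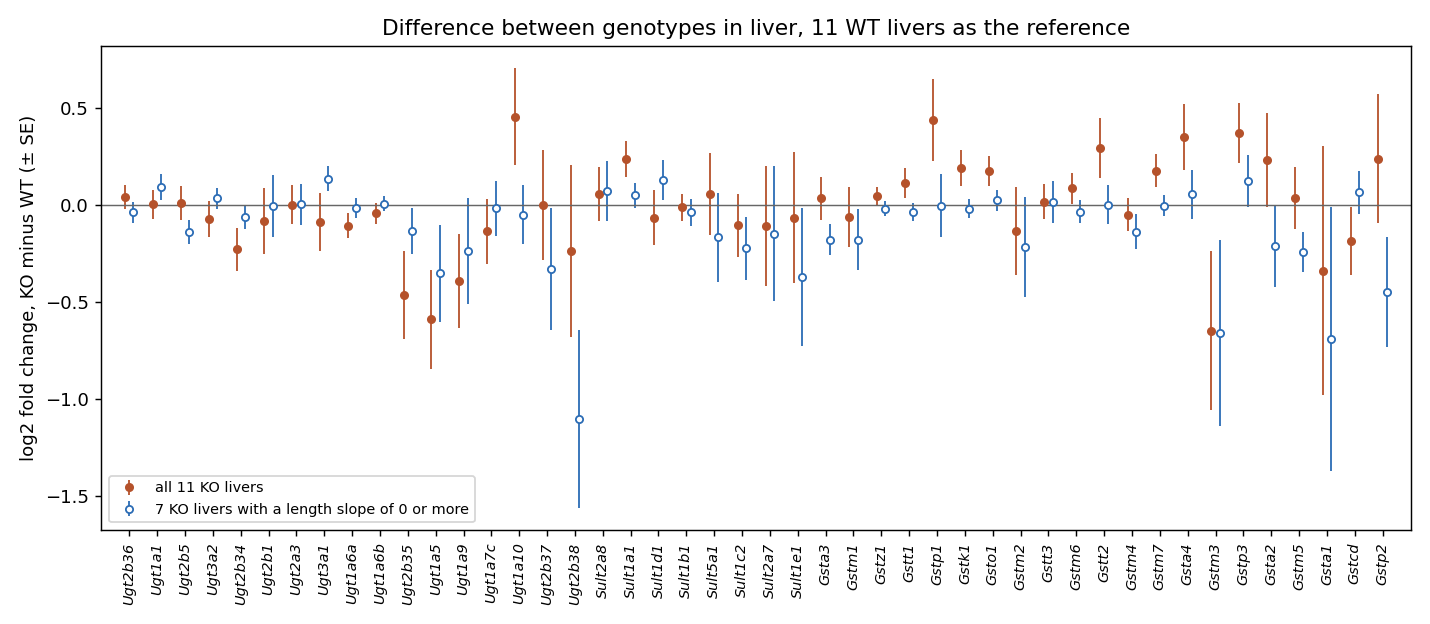
Log2 fold change, KO minus WT, of each gene tested in liver with its standard error as bars, from all 11 KO livers (filled) and from the 7 KO livers with a length slope of 0 or more (open). With the 7 livers, Gstp1, Gsto1, Gstk1 and Gstm7 lie near 0.

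Gstp1 (ENSMUSG00000060803), the pi class GST, had 127 to 277 CPM in WT livers (median 162 CPM) and 106 to 523 CPM in KO livers (median 206 CPM). The groups overlapped, and the highest 4 KO livers were those with a negative length slope. On the log2 scale KO minus WT was 0.44 (standard error 0.21, edgeR adjusted p = 0.38), and -0.0033 (standard error 0.16) without them. Sult1a1 (ENSMUSG00000030711) had 232 to 302 CPM in WT livers (median 253 CPM) and 228 to 446 CPM in KO livers (median 285 CPM), a log2 difference of 0.24 with a standard error of 0.09 (edgeR unadjusted p = 0.018 and adjusted p = 0.38), and 0.05 without the 4 libraries, which were again its 4 highest.

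Ugt1a5 (ENSMUSG00000089943) lay on the other side. It had 28.9 to 82.5 CPM in WT livers (median 53.0 CPM) and 10.9 to 62.0 CPM in KO livers (median 32.8 CPM), a log2 difference of -0.59 with a standard error of 0.25 (edgeR adjusted p = 0.38), and -0.35 without the 4. In 4 KO livers it was below every WT liver, and 1 of these, mouse 598, had a slope above 0. Ugt2b34 had a log2 fold change of -0.23 and -0.06 without the 4. Gstp3 had 0.37 and 0.12, Gsto1, which can reduce dehydroascorbate, 0.17 and 0.02, Gstm7 0.18 and -0.0027, and Gstk1, the peroxisomal and mitochondrial class, 0.19 and -0.02. Gstm3, with the widest spread between mice after Gsta1, had a fold change of -0.65 (standard error 0.41) and -0.66 (standard error 0.48) without the 4, neither of which passed.

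**Figure D4:**
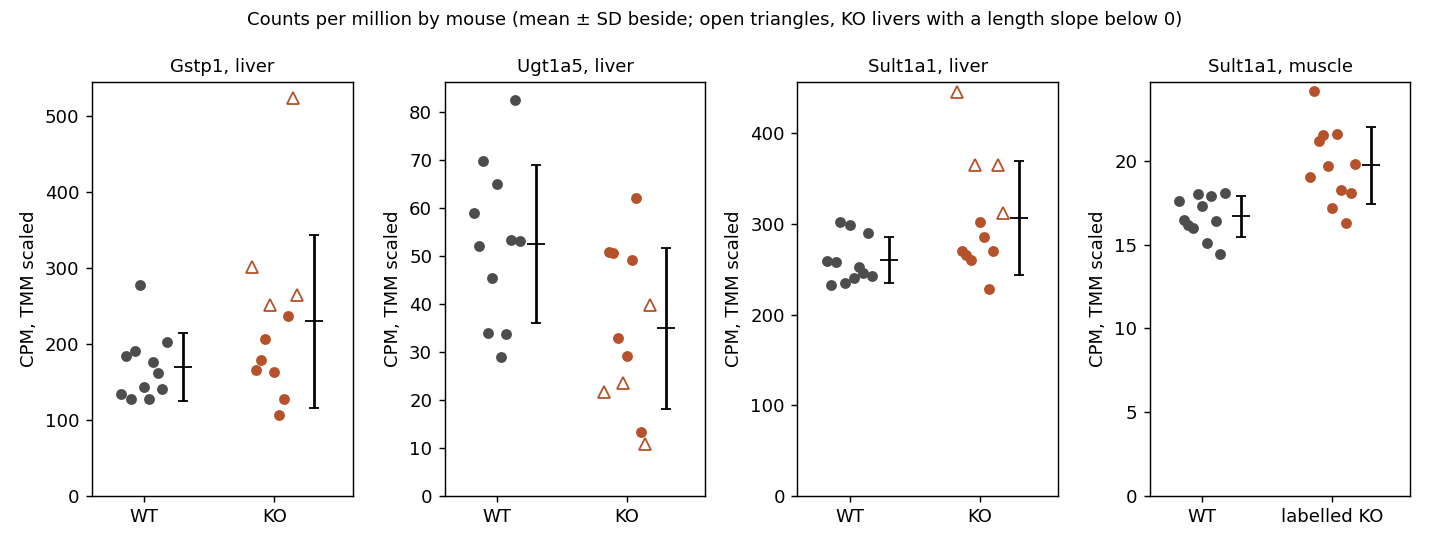
CPM of Gstp1, Ugt1a5 and Sult1a1 in liver and of Sult1a1 in muscle, with 1 point per mouse (11 per group), mean and SD beside, and triangles for the 4 KO livers with a length slope below 0. In liver, the 4 triangles are the highest KO values of Gstp1 and of Sult1a1, and in muscle the Sult1a1 values of the libraries labelled KO overlap those of WT.

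In muscle, 20 of the 47 genes were tested between 11 WT libraries and 11 labelled KO, and 0 had an adjusted p under 0.05, where 0.00754% of all 13266 genes did (1 gene). DESeq2 and limma-voom called 0 of them as well. Before adjustment 1 gene had p under 0.05 (5% of the 20), against 8.64% of all genes. The median log2 fold change of the 20 genes was 0.06 and that of all genes 0.0078.

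That gene was Sult1a1. It had 14.4 to 18.1 CPM in WT muscle (median 16.5 CPM) and 16.3 to 24.2 CPM in the libraries labelled KO (median 19.7 CPM). The groups overlapped, with 9 of the 11 libraries labelled KO above the highest WT library. The log2 difference was 0.24 with a standard error of 0.06 (edgeR unadjusted p = 0.00036 and adjusted p = 0.44), and over the alternatives the adjusted p was 0.19 to 0.75, so it did not pass. With each library left out in turn it was 0.21 to 0.27, with an unadjusted p of at most 0.00086.

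Mice 561 and 611 had the highest sums of adipocyte markers in muscle, at 1416 and 1303 CPM against 206 to 575 CPM in WT libraries, and the highest sums of hepatocyte markers, at 60.1 and 37.9 CPM. The same mouse 561 was highest in Sult1a1. Of the other genes with the smallest p in muscle, Ugt1a6b (log2 fold change 0.64), Gstt1 (0.21), Gstz1 (0.14) and Gsta3 (0.49) did not pass, and each was lowest when mouse 561 was left out, at 0.27, 0.10, 0.06 and 0.18. The part of these markers in the differences was not tested.

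Whether the genotypes differed by another amount in liver than in muscle was tested as an interaction over the 44 libraries, in which both tissues come from the same mice. Of 46 members tested, 0 had an adjusted p under 0.05, where 0.00678% of all 14739 genes did (1 gene), and 0 also in the paired fit with the mouse as replicate block. Before adjustment 5 genes (10.9%) had p under 0.05, against 16.2% of all genes. They were Ugt1a1 and Ugt2b34, with at most 8 and 3 reads in any muscle library, and Gsta4, Gstk1 and Gstp1, for which the difference of the fold changes, liver minus muscle, was 0.44, 0.23 and 0.47 (adjusted p = 0.29, 0.29 and 0.30 in edgeR's test). Without the 4 KO livers 6 of 47 genes (12.8%) were under 0.05 before adjustment, against 720 of all 14996 genes. All 6 differences were negative, so the positive ones of Gsta4, Gstk1 and Gstp1 did not remain. For Sult1a1 the difference was 0.01 (standard error 0.12), and without the 4 KO livers -0.19 (standard error 0.09, edgeR unadjusted p = 0.033 and adjusted p = 0.99).

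The other genes of the pathway were read from lists written by hand. Of the genes that supply the cofactors, 12 of 14 were tested in liver, and 0 passed and 1 had an unadjusted p under 0.05 (8.33%, against 12.9% of all genes), Ugdh, which makes UDP-glucuronic acid (168.7 ± 30.4 CPM in WT and 138.5 ± 31.5 CPM in KO livers, SD, n = 11 each, log2 fold change -0.28, edgeR adjusted p = 0.38). Of the transporters of conjugates, 0 of 10 had an unadjusted p under 0.05, with a median log2 fold change of -0.09, and the export pump gene Abcc2 (MRP2) had -0.35 and Abcc6 -0.12. Without the 4 KO livers the median of the transporters was 0.05, Abcc2 had 0.03, Abcc6 -0.03 and Ugdh -0.19 (edgeR unadjusted p = 0.15), and the cofactor gene under 0.05 was Gss, the second enzyme of glutathione synthesis, with -0.17 (unadjusted p = 0.0046, adjusted p = 0.999). Of 9 tested genes for NRF2 and its targets, 0 did, with a median of -0.08, and Gclc, the first enzyme of glutathione synthesis, had -0.25 and the thioredoxin reductase gene Txnrd1 -0.10, which became -0.08 and -0.04 without the 4 KO livers. Of 10 other conjugating and cleaving enzymes, 1 did: Nnmt, which methylates nicotinamide, with 0.39, and 0.06 without the 4 KO livers. Of 7 regulators of sex-dimorphic liver genes, 0 did, with a median of -0.22, and -0.01 without the 4 KO livers.

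Among 13 xenobiotic receptors and their targets in liver, 3 (23.1%, against 12.9% of all genes) had an unadjusted p under 0.05, all higher in KO livers, and 0 an adjusted one. They were Cyp1a1 (log2 fold change 4.42), Cyp1a2 (0.62) and Nr1i3, the receptor CAR (0.23). The Cyp1a1 value rests on mouse 597, and without its liver the log2 fold change was -0.41 for Cyp1a1 and 0.29 for Cyp1a2. Of the 13 genes 7 had a higher fitted level in KO livers (48.9% of all genes did), and 12 without the 4 KO livers (50.3% of all genes). Without the 4, 4 genes had an unadjusted p under 0.05 (30.8%, against 2.96% of all genes): Cyp1a1, Cyp1a2, the receptor partner Arnt (0.08) and Cyp2b10 (0.54). That fit still holds mouse 597, and Nr1i3 had 0.21 (unadjusted p = 0.079).

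In muscle, 2 of 12 tested cofactor genes (16.7%, against 8.64% of all genes) had an unadjusted p under 0.05, both higher in the libraries labelled KO, and 0 passed. They were Papss2, which makes the sulfate donor PAPS used by SULT enzymes (6.80 ± 0.850 CPM in WT and 8.54 ± 1.66 CPM in libraries labelled KO, SD, n = 11 each, log2 fold change 0.33, edgeR adjusted p = 0.49), and Slc35b3, a PAPS transporter (0.18). Mgst3, a membrane-bound GST relative in the list of other enzymes, had -0.09, and Abcg2, the export pump BCRP, had 0.13, each the only gene of its list below 0.05 (1 of 10 and 1 of 4 tested). Of 9 genes for NRF2 and its targets and 7 xenobiotic receptors and targets, 0 did, and of 8 sex-dimorphic regulators 1 did, the growth hormone receptor Ghr (0.09).

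Papss2 and Sult1a1 were then compared across mice, a relation chosen after their values were seen. Over the 11 muscle libraries labelled KO, log2 CPM gave r = 0.88 and rho = 0.86 (two-sided permutation tests with 100000 resamples, adjusted p = 0.00088 and 0.0027 over 2 relations), and r = 0.78 without the 2 libraries farthest from the median of Papss2. Over the 11 WT muscle libraries r was 0.35 and rho 0.31 (adjusted permutation p = 0.29 and 0.36), and r was 0.50 without 2 libraries. The difference between the 2 groups of libraries was not tested.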

How the data were processed

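All 44 libraries were used, grouped by genotype and tissue as labelled. The authors deposited raw read counts for 38202 genes and a table of RPKM values, also made by the authors; the aligner, counter, build and annotation are not given in the sources used here. Symbols came from a table of identifiers (36340 matched). Counts were tested in R 4.3.3 with edgeR 4.0.16 (filterByExpr, TMM scaling, quasi-likelihood test; p adjusted by Benjamini-Hochberg over every gene tested, threshold 0.05), and the liver fit was tested on simulated data. CPM values are TMM scaled, and log2 CPM used a prior count of 2. The exceptions are the sums of cell markers and the sum of trace genes set beside them in muscle. Those were scaled to the library total alone, without a prior count. For each library, log2 CPM minus the tissue mean was regressed on log2 gene length. The alternatives were DESeq2 1.42.0, limma 3.58.1 (voom), library size alone, other count filters, gene length as an offset (loess, span 0.3), each mouse left out, the mouse as replicate block, and the 4 KO livers of negative slope left out.

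For the pairing, the same animal number in both tissues is the same mouse, and the deviations of its 2 tissues from their group means correlated across 11607 genes with a mean of 0.10 (range -0.03 to 0.26, 22 mice). The 20150712 to 35218243 reads per library set the precision, the floor of 3 reads covers counting error only, and p-values measure the spread between mice. No pair of libraries held identical counts (0 found).

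Genes, lists and tests were chosen with earlier results of these data known. Named are, per family, the 3 genes with the highest median RPKM in each WT tissue, the 8 with the smallest p between genotypes per tissue, the 5 with the largest SD among WT livers, those higher in muscle, those at the count limit, and near copies. Copies were defined by coding sequence, at over 90% identity, since no protein table was used here. In pathway lists the 2 genes with the smallest p could be named, and any that were under 0.05 beside them. Sequences came from GENCODE M21 and RefSeq and were compared with Biopython 1.88.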

Additional observations from a re-analysis of the deposited data

How the results depend on the processing

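In liver, 0 of the genes passed the adjusted threshold under every alternative run, and the same held in muscle and for the interaction, also with the mouse as replicate block, where 0 passed. All 42 genes tested between WT liver and WT muscle passed under DESeq2, library size alone and the replicate block. The number with an unadjusted p under 0.05 in liver was 7, and it was 10 with DESeq2, 9 with a filter of 10 counts in 5 libraries, 8 with no filter, 4 with limma-voom, 4 with library size alone, 4 without the 4 KO livers of negative slope and 1 with gene length as an offset. It ranged from 2 to 11 with each mouse left out, with 2 without WT mouse 623 or KO mouse 532, 3 without WT mouse 531 or KO mouse 583 or 602, 4 without WT mouse 516 or 612, and 11 without KO mouse 568, 588 or 597. The number over all genes moved as well. It was 1675 of 13005 in the main fit, 1215 with gene length as an offset and 391 of 13210 without the 4 KO livers. With 1 mouse left out it was 895 of 13041 (KO mouse 532), 856 of 13061 (KO mouse 602), 1414 of 13054 (WT mouse 623) and 2547 of 13038 (KO mouse 597). The cause was not tested. In muscle the number of members was 1, ranged from 1 to 2 with each mouse left out (2 without WT mouse 612), and was 6 with no filter, where 38 were tested. Over all genes it was 1146 of 13266, 1401 of 13305 without WT mouse 612 and 3016 of 24232 with no filter.

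Of 472 values of named genes under the alternatives, 463 kept their direction and side of the threshold, and 9 changed sign, all without the 4 livers: Gstp1 at -0.0033 (edgeR), -0.0024 (DESeq2) and -0.0077 (limma-voom), Gstm7 at -0.0027, -0.0016 and -0.0053, and Gstk1 at -0.018, -0.018 and -0.016. DESeq2 and limma-voom without the 4 livers, and the interaction without the 4 livers, were chosen after seeing the data. Depth limits genes under 3 reads in muscle, and shared reads limit the Ugt1a, Gsta and Gstp genes.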

Other observations

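Gstt4 and Gsto2, GST genes just outside the count limit, stood apart in a single library. Gstt4 had 145 reads and Gsto2 121 reads in muscle labelled KO of mouse 602, while Gstt4 had at most 4 reads in every other library and Gsto2 at most 13.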
